A study of Mus musculus with 2 samples.

Results

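The transcription factors known for setting the identity of microglia and other macrophages were followed in single cells from mouse brain: Sall1, Sall3, Mef2a, Mef2c, Maf, Runx1, Runx3, Spi1 and Tfec. These 9 genes were found by symbol among the 31053 features that both libraries list, and all 9 reached 10 CPM, counts scaled to equal library totals, in at least 1 library. They were measured in 3304 of the 3504 cell barcodes of the WT library and in 5007 of the 5303 barcodes of the library labelled IRF8KO. A cell entered with at least 1000 UMIs, 500 detected genes and at most 10% of UMIs in mitochondrial genes. In the library labelled IRF8KO a cell also needed less than 2% of its UMIs in Camp, Ngp, S100a8, S100a9, Lcn2 and Ltf, genes of neutrophils. UMIs are the molecular tags by which captured transcripts were counted.

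A tissue macrophage is held in its state by factors that act together on the same enhancers. PU.1, the product of Spi1, opens myeloid enhancers and is the usual DNA partner of IRF8. Sall1, a zinc finger repressor, marks microglia among macrophages, and MEF2 factors, Maf and RUNX1 are bound to or active at many microglial enhancers, while Runx3 and Tfec are better known from other macrophages and from lymphocytes.

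Each group was 1 droplet library of FACS-sorted microglia, made from 3 pooled female C57BL/6 mice that were 3 months old, with no treatment named. The WT group had no named alteration. The other group is known as an Irf8 knockout from its title alone: its genotype entry reads WT, the allele is not named, and it is therefore called the library labelled IRF8KO. With 1 pool per group no difference has a replicate check, no p-value is given, and every 95% interval below covers counting error only, since cells are not replicates.

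The 2 libraries had similar totals from different numbers of cells. The described cells held 18543061 UMIs in WT, with a median of 3204.5 per cell, and 18980263 UMIs in IRF8KO, with a median of 2933. The mean was 5612 UMIs per cell in WT and 3791 in IRF8KO, and the median number of genes 1682 and 1379. The median mitochondrial share was 2.09% and 3.70%. The part of these differences in the results was not tested, but log2 ratios by depth are given with the processing. Irf8 itself gave 14725 UMIs from WT cells and 12698 from IRF8KO cells, a log2 ratio of -0.25; tags of this droplet method come from transcript ends and cannot show whether the gene was altered elsewhere. Each of 11 microglial markers was present in both libraries. Of these, 5 were at least 2-fold lower in IRF8KO cells, against 9.28% of all genes that reached 10 CPM in a library. The summed level of 11 markers of border macrophages was 14.3 CPM in WT cells, where 6 of them were at 0, and 3018 CPM in IRF8KO cells, where only Cd209f was at 0. Of the 11 markers 6 reached 10 CPM in a library, and 1 alone gave 1462 of the 3018 CPM. Whether border macrophages were among the cells, and their part in the values below, was not tested. The neutrophil limit split the IRF8KO library without cells near it: the highest share below it was 0.232% and the lowest above it 2.36%. Among the described cells 5 barcodes occurred in both libraries.

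Of the 9 factors 1 was lower, 2 were higher and 6 held. Lower and higher mean a difference of at least 2-fold in CPM summed over the cells of a library, and held means a smaller difference. Sall1 was 179-fold lower in IRF8KO cells. Runx3 was at least 457-fold higher and Tfec 35.4-fold higher. Mef2a, Mef2c, Maf, Runx1, Spi1 and Sall3 stayed within 2-fold, with log2 ratios from -0.59 to -0.16. Of the 8859 genes that reached 10 CPM in either library, 9.28% were lower by the same rule, 5.61% were higher and 85.1% were within 2-fold. The median log2 ratio of all these genes was -0.28, and that of the 9 factors was -0.32. A held value is best read against that median, because scaling by trimmed means (TMM) moved it by 0.26.

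**Figure D1:**
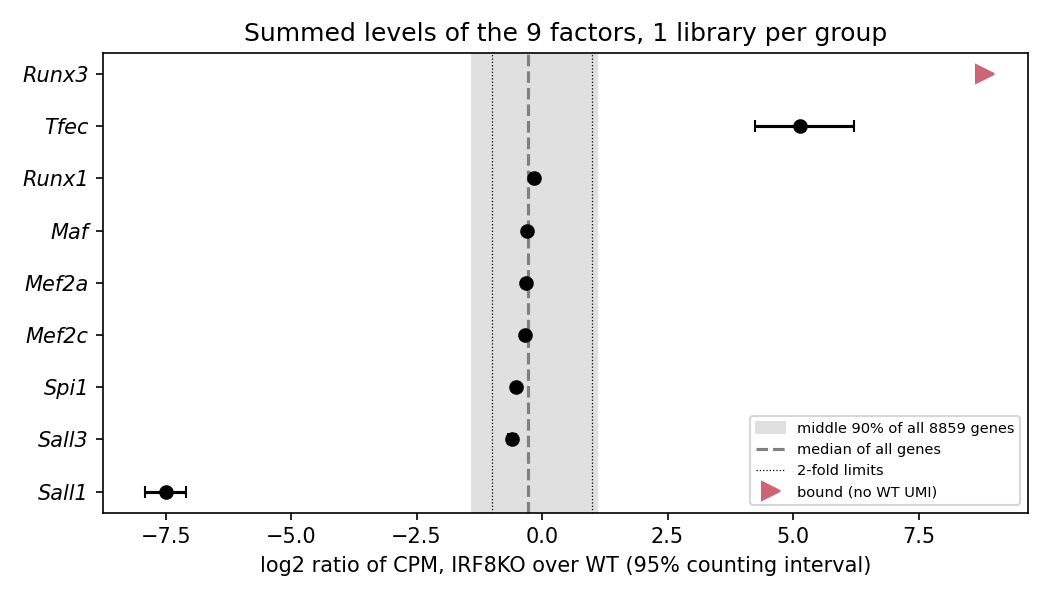
Log2 ratio of CPM, IRF8KO over WT, for the 9 factors (points, with 95% counting intervals), over the middle 90% of all 8859 genes (grey band) and their median (dashed). Sall1 at -7.49, Tfec at 5.14 and the lower bound for Runx3 at 8.83 lie outside the band, and the other 6 lie between -0.59 and -0.16.

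The 250 bases before the start of the 3 factors outside the 2-fold limits are shown, since these are the genes whose transcripts nearly vanished or appeared. They are RefSeq promoters on build GRCm38.p6, given 5′ to 3′ on the strand of the gene, and capitals mark matches to the RUNX motif TGTGGT, which reads ACCACA on the other strand. The first lies at chr4:135120395-135120644 on the plus strand, the second at chr6:16898442-16898691 on the minus strand and the last at chr8:89044163-89044412 on the minus strand.
Runx3, upstream start: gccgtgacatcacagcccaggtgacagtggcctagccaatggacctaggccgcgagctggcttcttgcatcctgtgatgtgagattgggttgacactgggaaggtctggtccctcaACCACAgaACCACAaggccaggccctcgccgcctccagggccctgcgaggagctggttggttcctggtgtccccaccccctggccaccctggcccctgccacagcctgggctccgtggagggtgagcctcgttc
Tfec: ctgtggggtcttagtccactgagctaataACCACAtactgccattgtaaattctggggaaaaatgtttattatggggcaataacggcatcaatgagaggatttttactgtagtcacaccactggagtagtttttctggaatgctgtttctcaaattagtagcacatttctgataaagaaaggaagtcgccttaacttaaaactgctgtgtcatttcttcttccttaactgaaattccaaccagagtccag
Sall1, most upstream start: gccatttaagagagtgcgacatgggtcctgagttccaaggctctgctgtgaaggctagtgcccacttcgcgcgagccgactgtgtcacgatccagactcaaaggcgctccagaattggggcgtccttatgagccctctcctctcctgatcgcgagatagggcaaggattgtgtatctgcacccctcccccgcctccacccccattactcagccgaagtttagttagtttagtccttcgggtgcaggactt
The Runx3 window held 2 matches, beginning at -134 and -126 from the start, and the Tfec window held 1 at -221, while the window of the downstream Runx3 start held 0. Across 32851 mouse promoter windows of the same length 14.05% held this motif, and of the 12 windows of the 9 factors 2 held it. Of the 9 factors 6 had a promoter in the table. No window held, on either strand, the interferon response element (GAAA, any 2 bases, GAAA) or the ETS-IRF element (GGAA, any 2 bases, GAAA), motifs found in 2.98% and 2.30% of all windows. A match is a match of letters, and its absence says nothing about binding.

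Sall1, the repressor that separates microglia from other macrophages, gave 9469 UMIs (511 CPM) from WT cells and 54 UMIs (2.85 CPM) from IRF8KO cells. The WT library was high and the library labelled IRF8KO was close to 0. The log2 ratio was -7.49, with an interval from -7.90 to -7.10. The gene lies on chromosome 8 from 89027235 to 89044162 on the minus strand (GRCm38, GENCODE M21), and no annotated gene overlaps it. To compare cells at equal depth, each was thinned to 2000 UMIs, which left 3019 WT cells and 4509 IRF8KO cells and left out 285 and 498 shallower ones. A Sall1 UMI was then seen in 60.6% of WT cells and in 0.488% of IRF8KO cells. Before thinning the shares were 76.2% and 0.619%. For background, 0 of 97 thinned neutrophil-rich cells of the IRF8KO library had a Sall1 UMI, which allows a share of up to 3.09%; their median depth before thinning was 7057.5 UMIs.

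The few Sall1 UMIs of the library labelled IRF8KO were gathered in few cells. The 54 UMIs lay in 31 cells, 12 of which had at least 2, and the most in a cell was 6. Of these UMIs 33 lay in 20 cells of a cluster of 35 cells, whose Sall1 level was 269 CPM (185 to 378). The 2 largest IRF8KO clusters, of 2188 and 2716 cells, had 5 and 12 Sall1 UMIs. Cells with Sall1 also differed in Apoe, an apolipoprotein gene of which IRF8KO cells had far more: Apoe took a median of 0.483% of UMIs in cells with Sall1 and 8.59% in the others. The 36 IRF8KO cells with less than 1% Apoe, a limit chosen after the values were seen, held 34 of the 54 Sall1 UMIs and 0 Runx3 UMIs, and 99.8% of WT cells were under that limit. The Runx3 count of 0 in these 36 cells allows up to 29.9 CPM. None of the 54 UMIs lay in a cell whose barcode occurred in both libraries. In the 2 largest clusters of each library alone, an alternative added after the values were seen, the Sall1 log2 ratio was -9.13.

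Sall3, the paralogue of Sall1, held. It gave 3447 UMIs (186 CPM) from WT cells and 2336 UMIs (123 CPM) from IRF8KO cells, a log2 ratio of -0.59 (-0.67 to -0.52). It was thus 1.51-fold lower, the largest shift among the 6 held factors and -0.32 relative to the median gene. The share of thinned cells with Sall3 was 27.1% in WT and 20.2% in IRF8KO, against 1.03% of neutrophil-rich cells. The gene lies on chromosome 18 from 80966376 to 80986771 on the minus strand. Sall1 made up 73.3% of the summed Sall1 and Sall3 UMIs in WT and 2.26% in IRF8KO cells.

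The genes linked in published work to Sall1 in microglia were mostly lower. Of 8 such genes 5 were lower and 3 held, with a median log2 ratio of -1.28, against 9.28% lower and 85.1% within 2-fold among all genes. Slc2a5, a fructose transporter, was at -3.56, P2ry12, a purinergic receptor, at -2.57 and Sparc, a matrix glycoprotein, at -2.26. Olfml3, a secreted protein, was at 0.07. The list was chosen with results of these libraries known and is not independent evidence of its direction.

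Mef2a and Mef2c, factors that bind A/T-rich enhancer sites, held together. Mef2a gave 19151 UMIs (1033 CPM) from WT cells and 15691 (827 CPM) from IRF8KO cells, a log2 ratio of -0.32 (-0.35 to -0.29). Mef2c gave 25072 UMIs (1352 CPM) and 20307 (1070 CPM), a log2 ratio of -0.34 (-0.36 to -0.31). Relative to the median gene these are -0.04 and -0.06. Mef2a made up 43.3% of their joint UMIs in WT and 43.6% in IRF8KO cells. At equal depth 85.7% of WT cells and 76.3% of IRF8KO cells had a Mef2a UMI, and 91.8% and 84.7% had a Mef2c UMI. In neutrophil-rich cells the shares were 12.4% and 9.28%. Mef2a lies on chromosome 7 from 67231163 to 67372858 (minus strand) and Mef2c on chromosome 13 from 83504034 to 83667080 (plus strand). Mef2a shares exon sequence with Lysmd4 on the opposite strand, which gave 96 and 86 UMIs, and no source used here gives the strand rule of the counting.

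Maf, a large bZIP factor of resident macrophages, gave 24904 UMIs (1343 CPM) from WT cells and 20612 (1086 CPM) from IRF8KO cells. The log2 ratio was -0.31 (-0.33 to -0.28), or -0.03 relative to the median gene. Maf was seen in 87.8% of thinned WT cells, 80.2% of thinned IRF8KO cells and 5.15% of neutrophil-rich cells. Maf lies on chromosome 8 from 115682942 to 115707794 on the minus strand. The antisense gene Gm15655, which overlaps a Maf exon, gave 269 and 335 UMIs.

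Spi1, which encodes the pioneer factor PU.1, also held. It gave 8366 UMIs (451 CPM) from WT cells and 5984 (315 CPM) from IRF8KO cells, a log2 ratio of -0.52 (-0.57 to -0.47) and -0.24 relative to the median gene. It lies on chromosome 2 from 91082390 to 91115756 on the plus strand. A Spi1 UMI was present in 57.8% of thinned WT cells and 45.5% of thinned IRF8KO cells. Neutrophil-rich cells, which belong to a lineage that uses PU.1, had Spi1 in 55.7% (45.2 to 65.8), an interval that overlaps those of the WT cells (56.0 to 59.6) and the IRF8KO cells (44.0 to 46.9), so for this gene they are no background class.

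**Figure D2:**
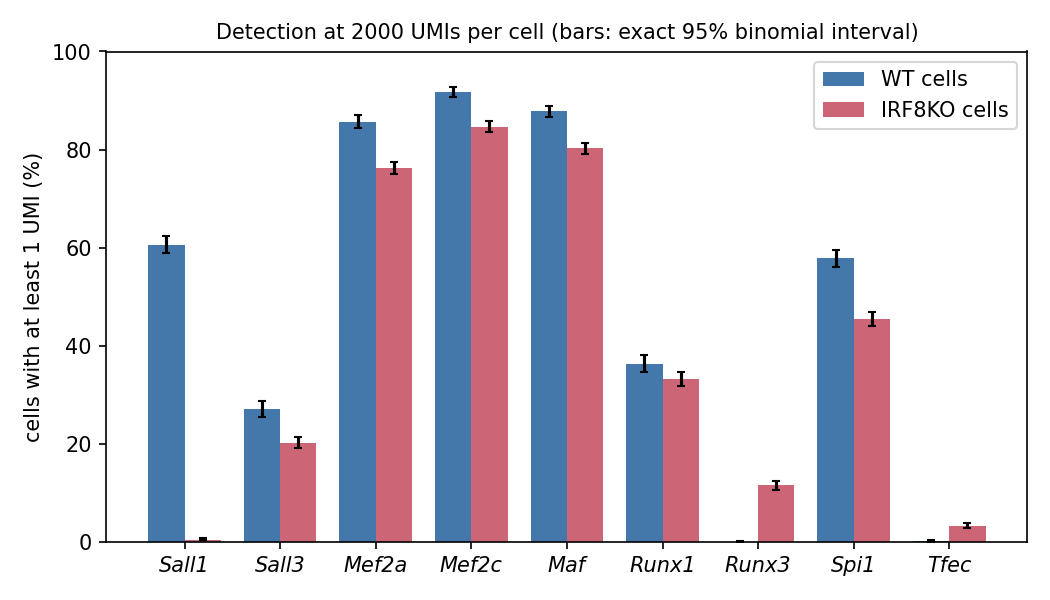
Percent of cells with at least 1 UMI of each factor after thinning to 2000 UMIs, in 3019 WT and 4509 IRF8KO cells, with exact 95% binomial intervals. Sall1 goes from 60.6% to 0.488%, Runx3 from 0% to 11.5% and Tfec from 0.132% to 3.24%, while the 6 held factors are seen in a somewhat smaller share of IRF8KO cells.

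The RUNX family changed its make-up. Runx1, a DNA-binding subunit of core-binding factor used throughout blood development, gave 4561 UMIs (246 CPM) from WT cells and 4176 (220 CPM) from IRF8KO cells. Its log2 ratio of -0.16 (-0.22 to -0.10) was the smallest of the 9, and it turned to 0.12 relative to the median gene and to 0.09 under TMM scaling. The gene lies on chromosome 16 from 92601466 to 92826149 on the minus strand, and antisense Gm26626, which overlaps a Runx1 exon, gave 0 UMIs in both libraries. Runx1 was seen in 36.3% of thinned WT cells, 33.2% of thinned IRF8KO cells and 18.6% of neutrophil-rich cells.

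Runx3, a paralogue best known from T and NK cells, gave 0 UMIs in WT and 1402 (73.9 CPM) in IRF8KO cells. Against 3 counts, the limit that a WT count of 0 allows over the library, it was at least 457-fold higher. Of 3019 thinned WT cells 0 had a Runx3 UMI, which allows a share of up to 0.0994%, against 11.5% (10.6 to 12.5) of IRF8KO cells. Before thinning it was seen in 969 IRF8KO cells, or 19.4%. Of the neutrophil-rich cells 3 of 97 had it, or 3.09% (0.642 to 8.77). Of 6 markers of T or NK cells 5 were at 0 in the described IRF8KO cells, and Klrb1c had 2 UMIs. The gene lies on chromosome 4 from 135120652 to 135177990 on the plus strand; antisense Gm16224, inside an intron, gave 1 and 8 UMIs.

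Runx2, the family member best known from bone, was higher too, with 20 UMIs (1.08 CPM) from WT cells and 1102 (58.1 CPM) from IRF8KO cells. Its log2 ratio was 5.75 (5.12 to 6.47). Runx1 thus made up 99.6% of the summed Runx1, Runx2 and Runx3 UMIs in WT and 62.5% in IRF8KO cells, where Runx2 made up 16.5% and Runx3 20.99%. The sum of the family was higher by 0.51 on the log2 scale. Cbfb, which encodes their common partner, was at -0.21.

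Tfec, the macrophage-restricted member of the family of Mitf, gave 10 UMIs (0.539 CPM) from WT cells and 362 (19.1 CPM) from IRF8KO cells. The log2 ratio was 5.14 (4.25 to 6.22). It was seen in 0.132% of thinned WT cells, 3.24% of thinned IRF8KO cells and 1.03% of neutrophil-rich cells. No IRF8KO cell had more than 5 Tfec UMIs. The gene lies on chromosome 6 from 16833373 to 16898441 on the minus strand. Its relatives did not share the direction: Tfeb, a regulator of lysosomal genes, was lower at -1.31 (-1.51 to -1.10), Mitf was at -0.66 and Tfe3 at -0.38. Tfec made up 0.181% of the summed UMIs of these 4 genes in WT and 8.43% in IRF8KO cells.

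For scale, 9.28% of all genes that reached 10 CPM were lower, 85.1% held and 5.61% were higher. Among 15 paralogues and partners of the 9 factors 10 reached 10 CPM. Tfeb was lower, Runx2 was higher and 8 held, with a median log2 ratio of -0.43. Among 35 other myeloid transcription factors 30 reached that level, of which 4 were lower, 21 held and 5 were higher, with a median of -0.33. The largest shifts were those of Bhlhe40, a basic helix-loop-helix repressor, at 6.54, Myb, a progenitor factor, at 4.99, Batf3, an AP-1 factor of dendritic cells, at -4.89 and Ets1, an ETS factor best known from lymphocytes, at -4.52. Bhlhe40 went from 11 to 1049 UMIs and Batf3 from 900 to 31. Both medians lie below the all-gene median of -0.28, as does that of the 9 factors.

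The spread over cells is given for the 6 held factors alone. How it moved over all genes was not computed, and the values pool clusters that differ in level. At equal depth the variance of UMIs per cell over their mean, which is 1 for pure counting, was 1.38 for Maf in WT and 1.72 in IRF8KO cells. It went from 1.16 to 1.30 for Mef2a, from 1.16 to 1.33 for Mef2c and from 1.10 to 1.21 for Runx1. Spi1 stayed near counting noise, at 1.01 and 1.10. Sall3 went the other way, at 1.15 and 1.10. Mef2a, Mef2c, Maf and Spi1 were seen together in 39.7% of thinned WT cells and 25.04% of thinned IRF8KO cells. Each of them alone was also seen in a smaller share of IRF8KO cells. The single shares were 85.7% and 76.3% for Mef2a, 91.8% and 84.7% for Mef2c, 87.8% and 80.2% for Maf, and 57.8% and 45.5% for Spi1. The joint shares were not set against those expected from the single ones, so they show no loss of joint detection.

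Within the library labelled IRF8KO the factors varied between the 2 largest clusters, which were made without the 9 genes. Runx3 was at 100.1 CPM in the cluster of 2716 cells led, besides Runx3 itself, by Cxcl2, Ms4a7 and Cd300ld, and at 18.8 CPM in the cluster of 2188 cells led by Ttr, Cck and G0s2, a 5.32-fold difference. Mef2a went the other way, with 755 CPM in the first and 984 CPM in the second, and so did Maf, with 993 and 1287 CPM. Mef2c was at 1011 and 1208 CPM. Runx1, Sall3 and Spi1 differed by at most 1.14-fold. Between the 2 largest clusters at a finer resolution (1.0) the log2 differences were larger for 5 factors, at -0.80 against -0.37 for Maf, -0.68 against -0.38 for Mef2a, -0.42 against -0.26 for Mef2c, -0.45 against -0.19 for Sall3 and -0.36 against -0.14 for Runx1. Another cluster at that resolution, of 874 cells, had Runx3 at 89.9 CPM with Maf at 1239 and Mef2a at 890 CPM. The finer cluster low in Runx3, of 2129 cells, had Runx3 at 19.7, Maf at 1283 and Mef2a at 983 CPM. Runx3 and Maf thus did not go opposite ways in every cluster. In the clusters of 2716 and 2188 cells Tfec was at 20.04 CPM (17.7 to 22.7) and 16.4 CPM (13.3 to 20.1), intervals that overlap. The first cluster was also deeper, with a median of 3403.5 UMIs per cell against 2509.5, and across 4 equal groups of IRF8KO cells ordered by depth Runx3 went from 39.7 to 65.5, 71.7 and 87.6 CPM; the part of depth in the difference was not tested.

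In a cluster of 66 IRF8KO cells led by the interferon-induced genes Cxcl10 and Rsad2, Runx3 was at 64.05 CPM, Mef2c at 733 CPM and Maf at 854 CPM. In the cluster of 35 cells with Sall1, Maf was at 1747 CPM, Mef2a at 1265 CPM and Runx3 at 0, which allows up to 30.1 CPM. Both WT clusters of over 500 cells, with 2640 and 610 cells, held Sall1 and Maf, with Sall1 at 473 and 547 CPM and Maf at 1265 and 1416 CPM. Nearly every cluster came from 1 library, so a cluster and its library cannot be told apart.

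**Figure D3:**
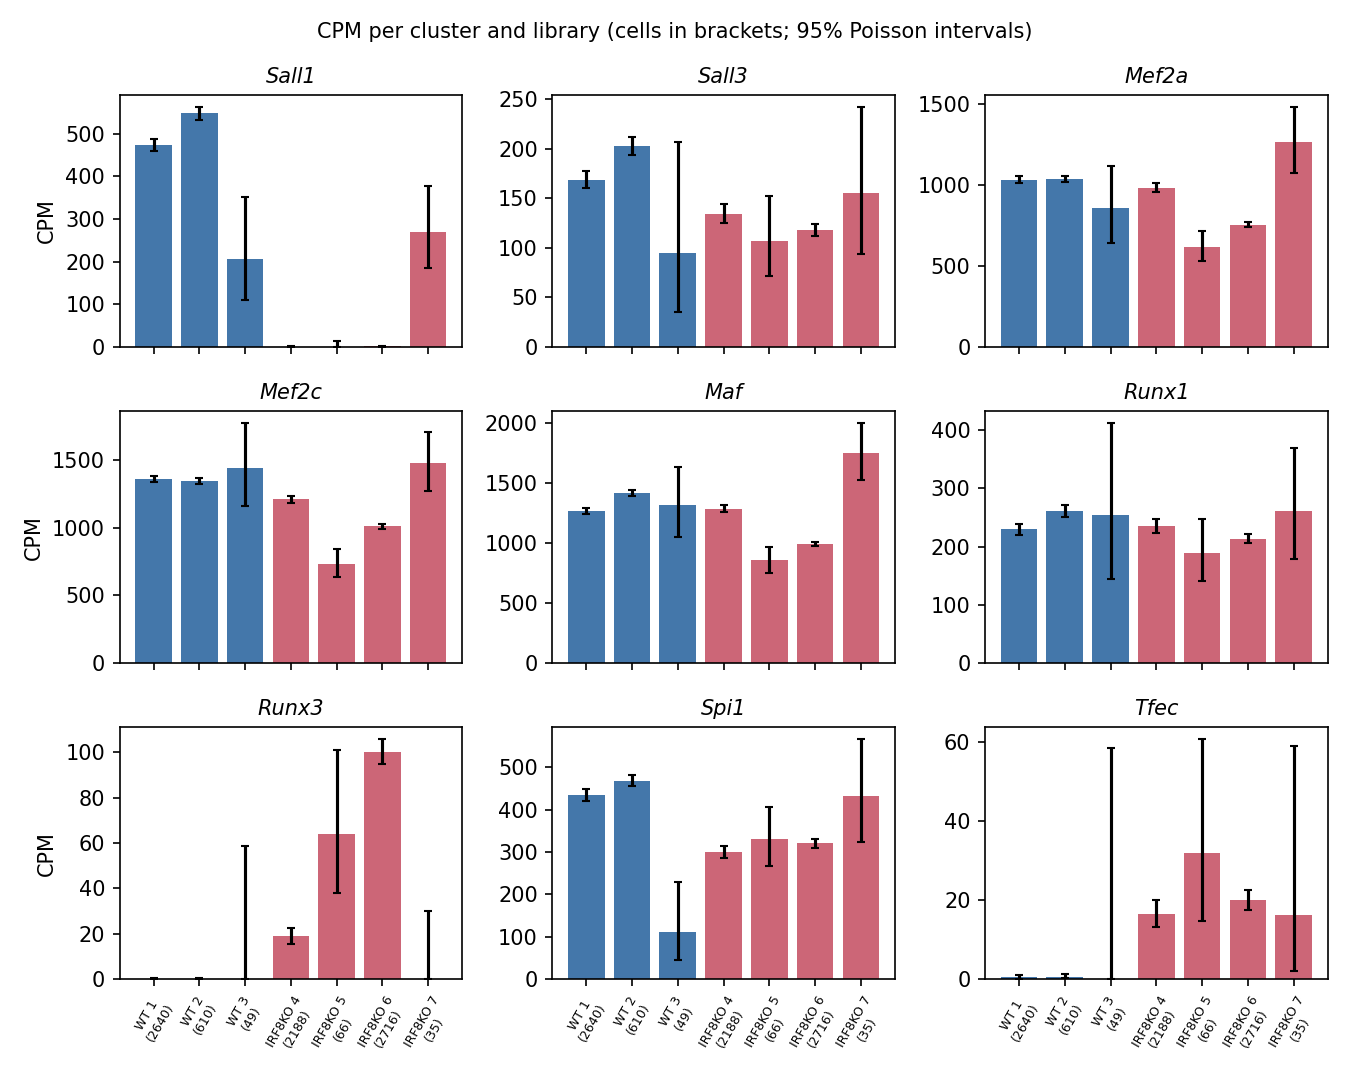
CPM of each factor in every cluster with at least 30 cells of a library (blue, WT; red, IRF8KO; cells in brackets), with 95% Poisson intervals. Runx3 reaches 100.1 CPM in cluster 6 and 18.8 in cluster 4, and Sall1 in the IRF8KO library is high in cluster 7 alone, at 269 CPM.

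The genes most like a factor over the 5 cluster groups with at least 50 cells were named by Pearson r of log2(CPM + 1). For Tfec these were Ms4a6b, Ccnd2 and Ms4a6c (r = 0.999, 0.999 and 0.998). For Sall1 they were Cnot8, Cldnd1 and Gm32849, and for Runx3 Ndufb2, Rpl22l1 and mt-Co2, each at 0.999 or above. With 5 groups this likeness separates little: 757 of 4421 genes had r above 0.95 with Sall1, 252 with Tfec and 248 with Runx3.

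By the rule set for exclusion, no pair of the 9 factors excluded each other. For each of the 36 pairs the number of thinned cells with a UMI of both was set against the number expected if the 2 were independent. A pair was called excluding at a ratio under 0.5 with a Poisson interval below 1, and was judged only where at least 5 cells were expected. In WT cells 21 pairs could be judged, with ratios from 0.978 to 1.08, and in IRF8KO cells 33, with ratios from 0.925 to 1.92. In this 1 thinning draw no ratio had its interval below 1 in either library, and none did for the mean of 20 draws. Taken singly, 2 of the 20 draws put Mef2a and Runx3 below 1 in IRF8KO cells. For Maf and Runx3 and for Sall3 and Runx3 it was 1 draw each. Intervals above 1 were seen in 4 draws for Runx3 and Tfec and in 1 for Sall3 and Mef2a. The test has little reach for abundant factors: given their shares, a ratio under 0.5 was possible at all for 5 of the 21 WT pairs and 25 of the 33 IRF8KO pairs. For the most abundant pairs an interval below 1 was out of reach too. The smallest possible ratio of Mef2a and Mef2c in WT cells was 0.985, and their interval ran from 0.958 to 1.04.

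The pairs of most interest showed both factors in the same cells. Runx1 and Runx3 were seen together in 175 IRF8KO cells, with 172 expected, a ratio of 1.02 (0.872 to 1.18). Runx2 and Runx3 shared 49 cells, with 51.9 expected. Sall3 and Runx3 shared 101 cells, with 105 expected. Runx3 and Tfec shared 21 cells, with 16.8 expected, a ratio of 1.25 (0.774 to 1.91). Averaged over 20 thinning draws the ratio was 1.35 (0.873 to 2.01) for Runx3 and Tfec and 0.904 (0.733 to 1.10) for Sall3 and Runx3. Spi1 and Runx3 shared 246 cells, with 236 expected.

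Sall1 and Runx3, a pair with opposite changes between the libraries, could not be judged, and neither could Sall1 and Tfec. In WT cells Runx3 was at 0, and in IRF8KO cells 0 cells had both where 2.53 were expected. Without thinning, 3 of the 31 IRF8KO cells with Sall1 had a Runx3 UMI, or 9.68% (2.04 to 25.8), against 19.4% of the others, so the 2 transcripts did occur in the same cell barcode. These 3 all lay outside the cluster of 35 cells, which held 20 of the 31 and had 0 Runx3 UMIs. That count of 0 allows up to 30.1 CPM, above the 18.8 CPM of the cluster of 2188 cells. Whether the 3 were doublets was not tested. Tfec, also without thinning, was in 3 of the 31 cells with Sall1, or 9.68% (2.04 to 25.8), against 6.39% of the others. For Runx3 and for Tfec alike the interval holds the share of the other cells. In the main thinning draw Sall1 and Runx1 were the only pair above expectation in IRF8KO cells. They shared 14 cells where 7.29 were expected, a ratio of 1.92 (1.05 to 3.22). This pair was not above expectation at other thinning depths, over 20 draws or with expectations summed over clusters.

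**Figure D4:**
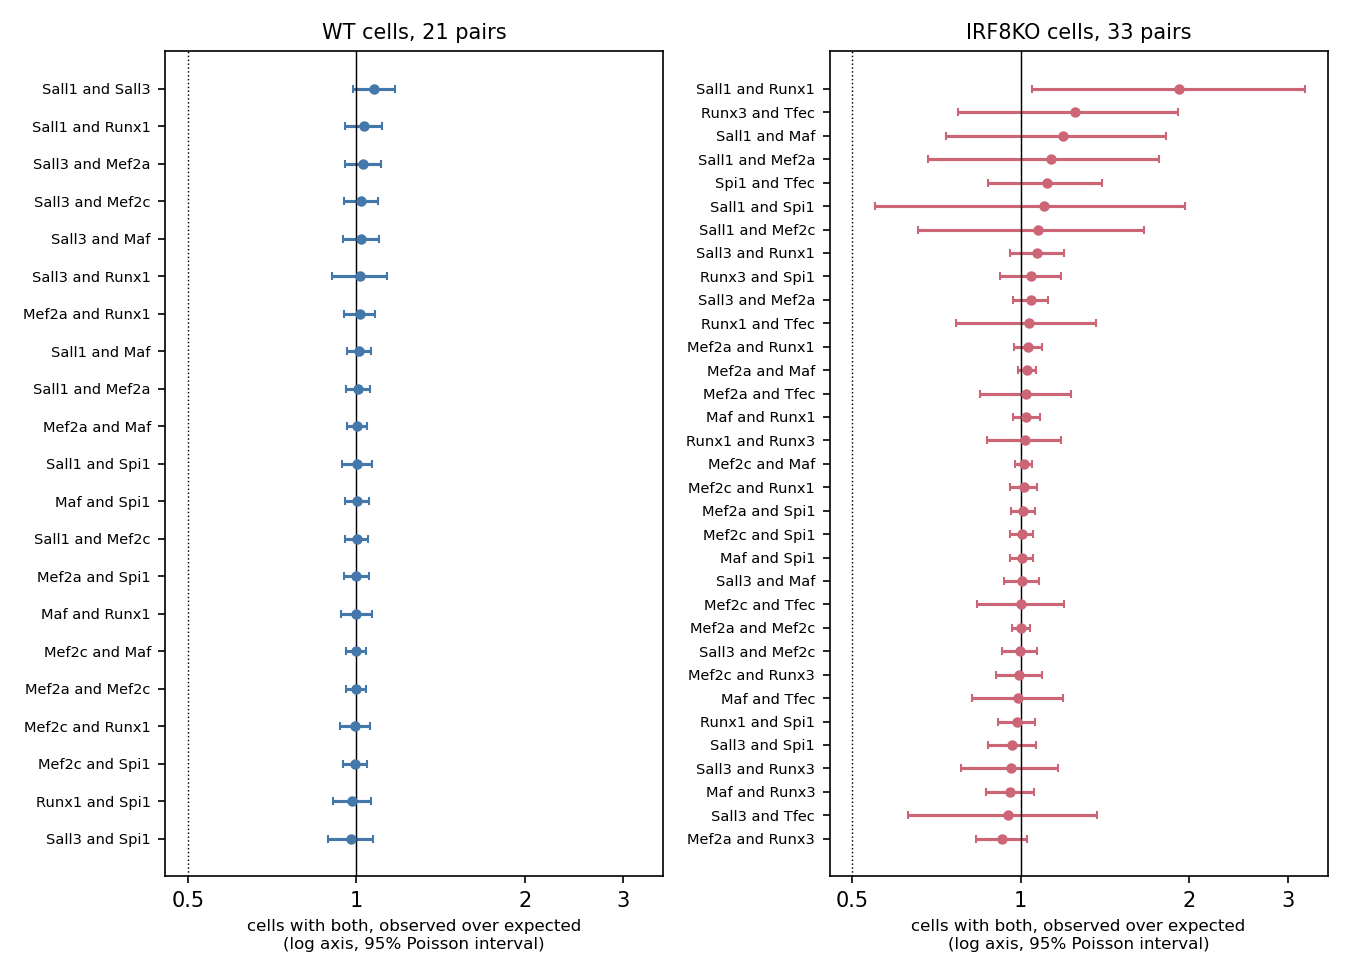
Cells with UMIs of both factors, observed over expected, for the 21 WT and 33 IRF8KO pairs that could be judged at 2000 UMIs per cell (log axis, 95% Poisson intervals; the dotted line marks 0.5). No interval lies below 1, which for the most abundant pairs was out of reach, and the lowest ratio is that of Mef2a and Runx3 in IRF8KO cells, at 0.925.

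A narrower comparison, added after the values were seen, asked whether the share of cells with 1 factor differed between cells with and without the other. In IRF8KO cells Mef2a and Runx3 were the only pair on the lower side: 70.5% (66.4 to 74.4) of cells with Runx3 had Mef2a, against 77.0% (75.7 to 78.3) of cells without. Inside the 2 largest IRF8KO clusters taken separately 0 pairs were on the lower side. Mef2a and Maf were on the higher side, since 78.2% of cells with Maf had Mef2a against 68.6% without, and so inside each of those clusters. All these shares come from the main thinning draw and were not computed for the 20 draws. Its observed over expected ratio for Mef2a and Maf, 1.025, lay above the range of the 20 draws, 1.010 to 1.020. For Mef2a and Runx3 it was 0.925, inside their range of 0.893 to 0.958. Mef2c and Maf were at 85.8% and 80.2%, and on the higher side inside the cluster of 2716 cells but not inside that of 2188. In all WT cells together only Sall1 and Sall3 were on the higher side, with Sall1 in 65.2% of cells with Sall3 and 58.9% of cells without, and inside each of the 2 largest WT clusters these intervals overlapped. Some pairs were higher inside a cluster alone. In the WT cluster of 610 cells, Sall1 was in 63.7% of cells with Maf and 45.3% without, and Sall3 in 35.7% and 18.8%. In the IRF8KO cluster of 2188 cells, Mef2a was in 85.7% of cells with Spi1 and 80.8% without.

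Graded by Maf UMIs, the same cells showed the 2 directions. In IRF8KO cells Runx3 was seen in 13.5% of cells with 0 Maf UMIs and in 8.21% (5.93 to 11.02) of those with 5 or more. Mef2a went from 68.6% to 84.6% over the same range. These shares pool clusters that differ in both Runx3 and Maf. In the clusters of 2188 and 2716 cells Runx3 was in 3.44% and 17.3% of thinned cells and Maf in 86.2% and 76.3%. Maf and Runx3 were seen together at 0.958 times expectation in IRF8KO cells, and at 0.994 with expectations summed over clusters. The gradings and both ratios come from the main thinning draw. In the 20 draws the pooled ratio of Maf and Runx3 ran from 0.884 to 0.954, below the 0.958 of that draw. In WT cells Mef2a was at 83.1% and 84.3% at the ends, with intervals that overlap. Over thinned cells Pearson r was -0.07 for Mef2a and Runx3 and 0.16 for Mef2a and Maf in IRF8KO cells, and it lay between -0.03 and 0.06 for the 28 pairs that could be computed in WT cells. These values describe sparse counts of cells that share a library, and correlations of this size are no finding.

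**Figure D5:**
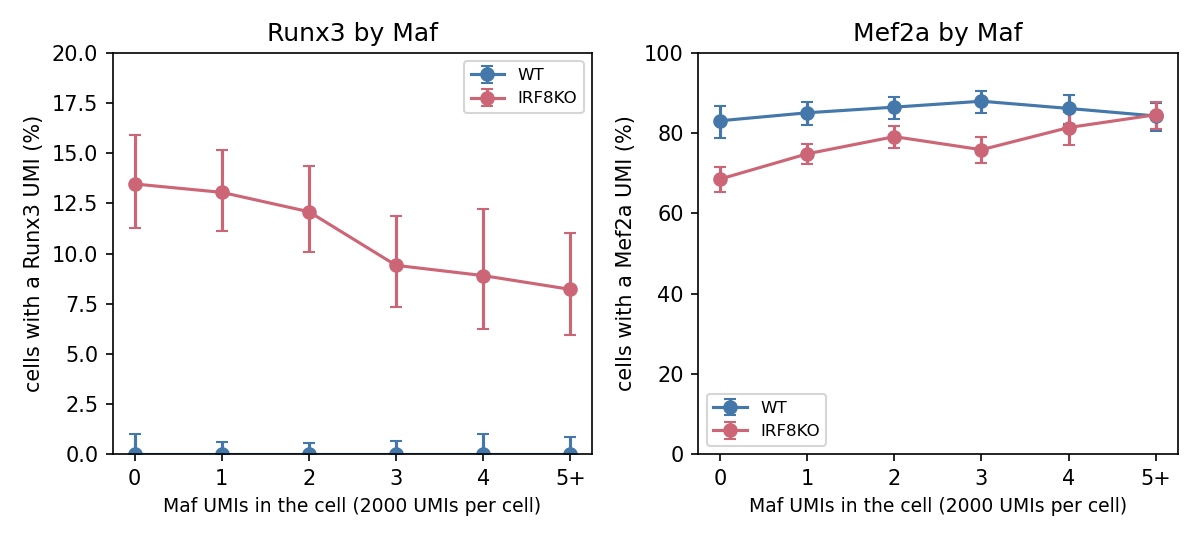
Percent of thinned cells with a Runx3 UMI (left) and with a Mef2a UMI (right) by the number of Maf UMIs in the cell, with exact 95% binomial intervals. All clusters of a library are pooled, and the cells are those of the main thinning draw. In IRF8KO cells Runx3 goes from 13.5% to 8.21% and Mef2a from 68.6% to 84.6%, while WT cells show 0 Runx3 throughout and Mef2a between 83.1% and 88.0%.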

How the data were processed

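The authors deposited, for each of the 2 libraries, a matrix of whole-number UMI counts per gene and barcode; per the file headers the values are integers, and the submitters' processing notes name bcl2fastq, Cell Ranger 3.1, Scanpy and mm10. The labels' protocols also name a full-length low-input kit, which is no droplet method. No source used here states the strand of counting or how cells were called. The 9 factors and all lists were chosen with earlier results of these data known. Raw counts were summed per library over the described cells and divided by their total to CPM; a sum of 0 was set to 3 counts and the ratio read as a bound. Intervals are exact at 95%: Poisson for CPM, binomial for shares, conditional binomial for ratios. Cells were thinned to 2000 UMIs with a fixed seed. Clusters (scanpy 1.11.5; 2000 variable genes without the 9 factors, 30 components, 15 neighbours, resolution 0.5) had no batch correction. Doublet scores from scrublet marked 0 WT and 3 IRF8KO cells, too few for a working call, so no cell was removed; an alternative left out the 87 and 208 highest scores. TMM factors came from edgeR 4.0.16. Named genes were the 9 factors, their direct paralogues (not all are reported here), the 4 largest shifts in each list of other factors and the 3 most alike genes per factor; Slc2a5, P2ry12, Sparc and Olfml3 and the Apoe, Runx2 pair and Maf gradings were chosen after their values were seen. The scripts were tested on simulated data. No count model or p-value was used, as each group is 1 library.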

Additional observations from a re-analysis of the deposited data

Results flagged for a closer look

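Neutrophil-rich cells of the library labelled IRF8KO, which stand outside the cells described above, gave Runx3 UMIs. These were seen in 3 of 97 thinned cells, or 3.09% (0.642 to 8.77). Of the WT cells, which come from another library, 0 of 3019 had one, with an exact interval that reaches 0.122%. The share in the described IRF8KO cells was 11.5% (10.6 to 12.5). WT cells held no neutrophil-rich class for comparison. The same neutrophil-rich cells had Mef2a in 12.4% and Maf in 5.15%. Whether their Runx3 UMIs came from other cells of the same library was not tested.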

How the results depend on the processing

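Leaving aside Runx3, which has no counting interval, and settings that cannot move a ratio, the ratios were recomputed under 11 alternatives. Of the 88 values 46 lay within the counting interval, 42 outside it, and 0 turned the direction of a called factor. Sall1 ranged from -9.13 to -7.10, Runx3 from 8.66 to 9.11 and Tfec from 5.11 to 5.42. In these settings Runx1 alone crossed 0, in the 2 given with its value. A further split, outside these settings, put the cells of each library into 4 equal groups by depth. In the shallowest group Maf was at 0.09 and Runx1 at 0.01, and in the deepest at -0.37 and -0.20. Mef2a went from -0.13 to -0.38, Mef2c from -0.11 to -0.42, Sall3 from -0.32 to -0.68 and Spi1 from -0.33 to -0.56. The part of depth in these falls was not tested. With a limit of 1.5-fold in place of 2-fold, 2 factors were lower, as Sall3 joined Sall1. Totals without Apoe, the largest clusters and the comparison of shares with and without the other factor were added after the data were seen; the last put 1 IRF8KO pair below expectation in place of 0. The counts of excluding pairs were 0 under every planned setting. At resolution 1.0 Runx3 differed by 2.50 on the log2 scale between the 2 largest IRF8KO clusters, against 2.41, and the larger differences of 5 other factors are given with the clusters. Without thinning, shares were higher and with 1000 UMIs lower, in both libraries alike: Sall1 was in 35.9% of WT cells at 1000 UMIs. No paired analysis was possible because each group is 1 library. Too sparse to judge were 15 WT and 3 IRF8KO pairs, and at 3000 UMIs per cell the same numbers of pairs, 21 and 33, could be judged as at 2000.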
